A study of Rattus norvegicus with 8 samples.

Results

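The genes described here encode lysosomal enzymes, the activators and carriers that work beside them, proteins of the lysosomal membrane, and the subunits of the V-ATPase, the proton pump of the lysosome. The members were 32 named genes plus every gene whose symbol begins with Atp6v, without the cathepsins, and a probe set was kept where it carried exactly 1 gene symbol and a deposited signal of 50 or more on 2 or more arrays. Of the 50 member genes with such a symbol on the array, 48 were kept through 60 probe sets, out of 11248 named genes that met the same signal rule. Npc1 and Sgsh had no probe set with a single symbol. Atp6v1b1 and Atp6v1g3 were on the array but below the signal rule.

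The study followed the testes of Sprague-Dawley rats after a single dose of Adjudin, 50 mg/kg by gavage. Adjudin is a compound that loosens the adhesion of germ cells to Sertoli cells, the somatic cells that hold and nourish them, so that germ cells leave the epithelium. The 3 groups were untreated adult rats (3 arrays), rats taken 8 hours after the dose (2 arrays) and rats taken 4 days after it (3 arrays). The titles give these groups, while the description of all 8 samples calls the testis normal. No group that received the vehicle alone is named, and an age beyond adult is not given. Nothing in the labels ties an array to its own animal, so a p-value here reflects the spread among these arrays alone, and that spread may be technical.

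Lysosomes digest material taken up from outside the cell or delivered by autophagy, with acid hydrolases that reach them through mannose 6-phosphate receptors and work in the acid made by the V-ATPase. In the testis, Sertoli cells engulf residual bodies and dying germ cells and break them down in lysosomes, and macrophages lie between the tubules. Spermatids carry the acrosome, a lysosome-related organelle that holds several of the same enzymes and is acidified by the same kind of pump. The array reads RNA of whole testis, so fewer cells of a type and less RNA per cell cannot be told apart.

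Signals were scaled to the same trimmed mean of 500 on each array. On that scale 51.6% to 59.0% of probe sets read 100 or more. Markers of Sertoli cells, Leydig cells, spermatocytes and spermatids were measured above the signal minimum, and the summed signal of the 12 markers of elongating spermatids was 253954 to 377238 in controls and 176923 to 248315 at 4 d. The arrays were hybridised in 3 runs: the first with control 1, 8 h 1 and 4 d 1, the second with control 2 and 4 d 2, and the third with control 3, 8 h 2 and 4 d 3. Arrays of the same run deviated from their group means together, with correlations over all tested probe sets of 0.35 to 0.51, so differences within each run are given beside the pooled ones. All tests are limma fits across 19785 probe sets with Benjamini-Hochberg adjustment, called at an adjusted p below 0.05. Differences are on the scale of log2(scaled signal + 32), which understates the change of dim genes, and each gene is read through its brightest probe set.

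At 4 d, 19 of the 48 member genes were higher than in control testis and 0 were lower. Of all tested named genes, 7.63% were called higher and 5.19% lower. The 19 genes rose by 0.54 to 3.31 on the log2 scale. In each of them every 4 d array read above every control array, which by itself makes the difference within each of the 3 runs positive. The median difference over the 48 members was 0.50, against 0.031 over all tested genes, and within the runs the members' median was 0.43, 0.42 and 0.65. Every 4 d array lay above every control in 29 members, or 60.4%, against 19.7% of all tested genes. Among the 29 are Gpnmb, Scarb2 and Atp6v0a4, which were tested only through their 4 d arrays. Without these 3 members 18 of 45 were higher at 4 d and the median difference was 0.44. Every 4 d array lay below every control in 2 members, Neu1 and Arsa, against 14.5% of all tested genes. With the run as a block, 25 members were higher and 1, Atp6v1d, was lower, where 15.3% and 11.9% of all tested genes were called. With median scaling of the arrays 11 members were higher, and without the array 4 d 1 there were 12. Without the whole first run there were 3, and without the second 7.

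The rise was uneven across roles. Of the 20 hydrolases, 11 rose, with a median difference of 0.63. Of the 4 activators and soluble carriers 3 rose, and of the 6 membrane proteins 3 rose, with medians of 0.71 and 0.98. Of the 18 V-ATPase subunits 2 rose, Atp6v0d1 and Atp6v1e1, which is 11.1% beside 7.63% of all tested genes, a share near the background. With the run as a block 5 of the 18 rose (27.8% beside 15.3%). Every 4 d array lay above every control in 7 of the 18 (38.9% beside 19.7%). The median difference of the 18 was 0.24, against 0.031 over all tested genes. It was 0.68 for the other 30 members, of which 17 rose (56.7%). That difference between the roles was not tested. The V-ATPase genes entered by the prefix of their symbol and the other members by name. Members were chosen with earlier results of these data known, so these shares rest on unlike selection. Within the runs the V-ATPase median was 0.30, 0.032 and 0.25, while that of the other members was 0.62, 0.65 and 0.88.

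**Figure D1:**
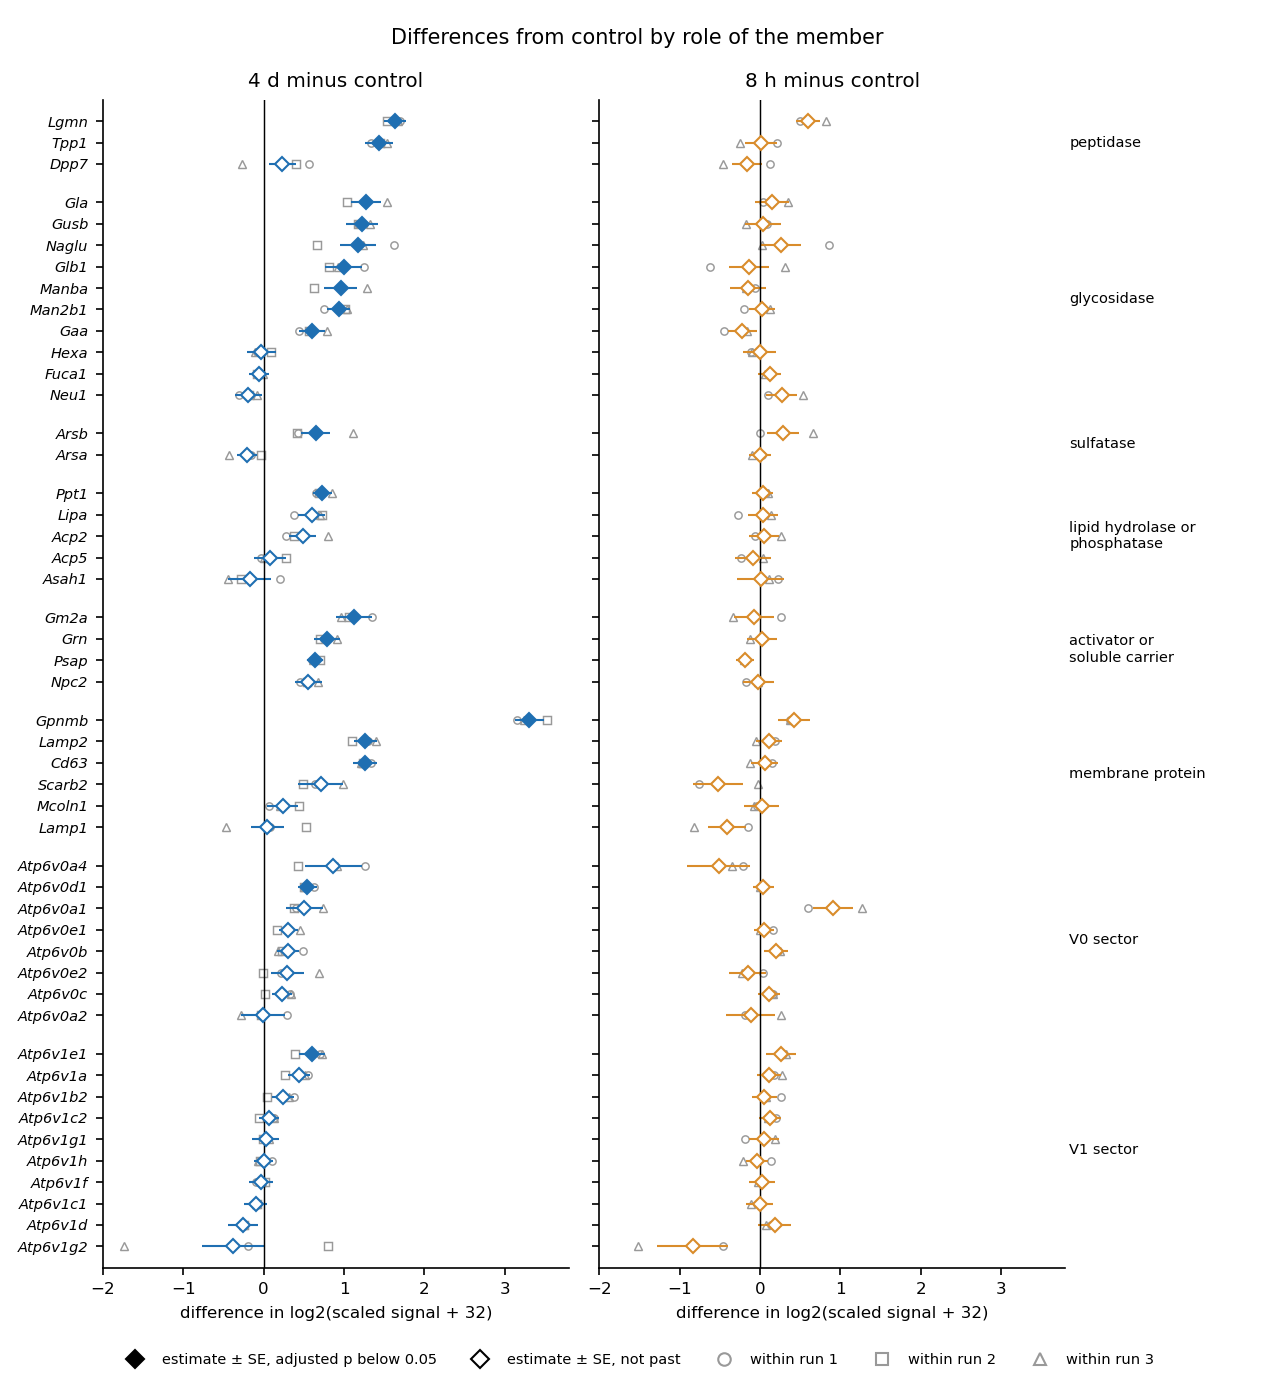
Difference from control of each of the 48 member genes on the log2(scaled signal + 32) scale, at 4 d (left) and at 8 h (right), grouped by role; coloured diamonds are the estimates with their standard errors, filled where the adjusted p is below 0.05, and open grey symbols are the differences within each run. At 4 d the filled diamonds lie to the right of 0 in 19 genes and in none to the left, from 0.54 for Atp6v0d1 to 3.31 for Gpnmb, and at 8 h no diamond is filled.

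Several lysosomal genes are known targets of TFEB, a transcription factor that binds the E-box CACGTG within a longer palindrome, the CLEAR element. The RefSeq windows of 300 bases around the gene start (250 before, 50 after, build GRCr8) covered 38 of the 48 members and 27457 genes in all. Both strands were searched for CACGTG and for its longer forms TCACGTG and GTCACGTG and for the full CLEAR palindrome, each of which holds the shorter ones. The core CACGTG was in 7 of the 38 members (18.4%), in 7.08% of all genes of the table and in 10.1% of the tested genes. The form GTCACGTG was in 6 of the 38 (15.8%), against 2.09% and 3.89%. The full palindrome was in 0 of the 38 members and in 0.28% of all genes. A match is a description of the letters, not of binding.

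The members with the core were Atp6v0d1, Gaa, Glb1 and Cd63, which were higher at 4 d, and Atp6v0e1, Lamp1 and Mcoln1, which did not pass the threshold. The core was thus in 4 of the 16 matched members that rose and in 3 of the 22 that did not. A link between the core and the rise was not tested. The stretches of 5 members whose matches and flanks lie wholly before the start are shown, the 4 that rose and Lamp1, which holds 5 cores. Those of Mcoln1, which holds 2 cores, and of Atp6v0e1 reach past the start and are not printed. Capitals mark the longest match at each core to GTCACGTG or its shorter forms, on either strand. An adjoining letter of the other strand's form stays in lower case, as in Atp6v0d1 and at the last pair of Lamp1 cores. The cores begin 52 bases before the start in Atp6v0d1, 67 in Gaa, 100 in Glb1, 190 in Cd63, and 183 to 38 in Lamp1. The stretches are Atp6v0d1 at chr19:50357275-50357322 (minus strand), Gaa at chr10:105028268-105028315 (plus), Glb1 at chr8:122963596-122963643 (plus), Cd63 at chr7:1921934-1921979 (plus) and Lamp1 at chr16:83075074-83075267 (minus).
Atp6v0d1: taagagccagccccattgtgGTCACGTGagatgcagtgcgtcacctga
Gaa: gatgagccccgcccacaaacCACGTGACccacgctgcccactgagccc
Glb1: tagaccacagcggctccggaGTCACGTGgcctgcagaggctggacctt
Cd63: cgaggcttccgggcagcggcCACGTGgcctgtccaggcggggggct
Lamp1: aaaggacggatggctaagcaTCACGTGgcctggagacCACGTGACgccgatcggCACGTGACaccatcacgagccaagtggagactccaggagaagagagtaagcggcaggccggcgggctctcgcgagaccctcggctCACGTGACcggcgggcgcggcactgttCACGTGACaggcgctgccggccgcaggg

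Of the 3 peptidases, 2 rose at 4 d. Lgmn encodes legumain, which cuts after asparagine and matures other lysosomal proteases. Its scaled signal was 908, 1062 and 949 in the 3 control arrays, 1290.3 and 1702 at 8 h, and 3003, 3129 and 3088 at 4 d. The 3 groups did not overlap, and the 4 d arrays were close to each other. The mean went from 973 ± 80.0 (SD, n = 3) in controls to 3074 ± 64.2 (n = 3) at 4 d, a log2 difference of 1.63 with a standard error of 0.14 and an adjusted p of 0.000204 (limma). Tpp1, a tripeptidyl peptidase whose loss causes a neuronal storage disease, read 362, 395 and 475 in controls, 426 and 396 at 8 h, and 962, 1134 and 1435 at 4 d. The control and 8 h arrays overlapped and the 4 d arrays stood above both, by 1.44 ± 0.18 (SE) over controls (adjusted p = 0.00105, limma). Dpp7, dipeptidyl peptidase 2, did not pass: it was 1044 to 1582 in controls and 1308 to 1677 at 4 d, groups that overlapped (log2 difference 0.23, adjusted p = 0.472).

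Of the 10 glycosidases, 7 rose at 4 d, by 0.60 to 1.27 on the log2 scale. Gla encodes alpha-galactosidase A, which removes galactose from glycolipids. Its signal was 238, 279.9 and 267 in controls, 245 and 349 at 8 h, and 608, 609 and 831 at 4 d (1.27 ± 0.19, adjusted p = 0.003). Gusb, beta-glucuronidase, read 143, 131 and 178 in controls, 154 and 153 at 8 h, and 362, 335 and 493 at 4 d (1.22 ± 0.20, adjusted p = 0.00492). In both genes the lowest 4 d array was above the highest of the other 5 arrays. Naglu, which takes N-acetylglucosamine off heparan sulfate, read 227, 374 and 271 in controls, 439 and 275 at 8 h, and 764, 613 and 681 at 4 d (1.17 ± 0.22, adjusted p = 0.00916). Its 8 h arrays lay on both sides of the highest control.

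The other glycosidases that rose act on the remaining sugar bonds of glycoproteins and of glycogen. Glb1, the lysosomal beta-galactosidase, read 480.4, 460.2 and 470.2 in controls, 302 and 590.1 at 8 h, and 1185, 831 and 921 at 4 d (0.99 ± 0.23, adjusted p = 0.022). The controls were nearly level while the 8 h arrays lay on either side of them. Manba, beta-mannosidase, read 247, 229 and 183 in controls, 235 and 159 at 8 h, and 512, 372 and 491 at 4 d (0.96 ± 0.20, adjusted p = 0.0167). Man2b1, the lysosomal alpha-mannosidase, read 519, 404 and 411 in controls, 447 and 453 at 8 h, and 895, 849.9 and 877 at 4 d (0.93 ± 0.14, adjusted p = 0.00354). In both mannosidases the control and 8 h arrays overlapped and the 4 d arrays stood apart. Gaa, the acid alpha-glucosidase that breaks down glycogen, was 639 to 769 in controls and 963 to 1338 at 4 d (0.60 ± 0.16, adjusted p = 0.0444). A second probe set of Gla gave 0.77 (adjusted p = 0.0545), a second one of Gaa 0.77 (adjusted p = 0.0232), and a dim second one of Man2b1 0.11.

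The calls of Glb1, Manba and Gaa depended on single arrays. Glb1 lost its call without control 1, control 2, 4 d 1 or 4 d 3, with an adjusted p of up to 0.0985. Manba lost it without 4 d 1 or 4 d 3 (up to 0.0842), and Gaa without any 1 of the 8 arrays (up to 0.15). The 3 glycosidases that did not pass had differences near 0. Hexa, the alpha subunit of beta-hexosaminidase, was 3702 to 5301 in controls and 3690.4 to 4938 at 4 d (-0.03), and Fuca1, the alpha-fucosidase, was 11461 to 13124 and 10870.2 to 13006 (-0.06). Both groups overlapped almost wholly. Neu1, the lysosomal sialidase, read 495, 565 and 512 in controls, 535 and 756 at 8 h, and 393, 494 and 482 at 4 d (-0.19, adjusted p = 0.575). Each 4 d array lay below the lowest control, 4 d 2 and 4 d 3 only just. A second probe set of Neu1 gave -0.06, with control and 4 d arrays that overlapped.

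Of the 2 sulfatases, Arsb rose. Arsb encodes arylsulfatase B, which removes sulfate from dermatan sulfate, and it read 334, 319 and 250.3 in controls, 334 and 415 at 8 h, and 458, 437 and 577 at 4 d. Its 4 d arrays lay above all others, by 0.65 ± 0.18 over controls (adjusted p = 0.0488), but the call was lost without any 1 of the 8 arrays, with an adjusted p of up to 0.161. These values are of the brighter of its kept probe sets, and the other is not reported here. Arsa, the arylsulfatase that acts on sulfatide, was 2802 to 3380.4 in controls and 2502 to 2764 at 4 d, each 4 d array below each control (-0.21, adjusted p = 0.368). Its second probe set gave -0.35 (adjusted p = 0.143, and 0.0443 with the run as a block).

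Of the 5 lipid hydrolases and phosphatases, 1 rose without the block and 3 with it. Ppt1, which takes palmitate off proteins and whose loss causes an infantile storage disease, read 1561, 1743 and 1549 in controls, 1648 and 1655 at 8 h, and 2463, 2828 and 2820.3 at 4 d. Its control and 8 h arrays lay together and its 4 d arrays stood apart (0.73 ± 0.12, adjusted p = 0.00466). Lipa, the acid lipase of cholesteryl esters, was 288 to 378 in controls and 499 to 591 at 4 d (0.60, adjusted p = 0.0514, and 0.0101 with the run as a block). Acp2, a lysosomal acid phosphatase, was 373 to 554 and 676 to 680.0 (0.49, adjusted p = 0.105, and 0.0247 with the block). Neither group of 4 d arrays overlapped its controls. Acp5, the tartrate-resistant acid phosphatase of osteoclasts and macrophages, was 141 to 149 in controls and 138 to 177 at 4 d (0.08). Asah1, acid ceramidase, gave -0.17 (adjusted p = 0.773) on its brighter probe set and 0.91 (adjusted p = 0.145, and 0.00274 with the block) on a dimmer one, so its probe sets disagreed in sign.

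Activators and soluble carriers present lipids to the enzymes or take them away. Psap encodes prosaposin, the precursor of the saposins, which is also secreted by Sertoli cells. It read 9178, 9146 and 9427 in controls, 7974 and 8234 at 8 h, and 13935, 14864 and 14468 at 4 d. The spread within each group was small beside the step at 4 d, which was 0.64 ± 0.10 (adjusted p = 0.00451), and both 8 h arrays lay below the lowest control. Gm2a, the activator that lifts a ganglioside to hexosaminidase, read 1373, 2042 and 2566 in controls, 1657 and 2018 at 8 h, and 3548, 4308 and 5037 at 4 d (1.13 ± 0.22, adjusted p = 0.0114). On the log2 scale its controls differed more among themselves than the 4 d arrays did, in the same order of runs. With the run as a block its adjusted p was 8.22e-05. Grn encodes progranulin, a secreted protein that is also cut into granulins in the lysosome, and read 1117, 1020.4 and 1308 in controls, 1125 and 1199 at 8 h, and 1899.8, 1679 and 2498 at 4 d (0.79 ± 0.17, adjusted p = 0.0155). Grn lost its call without control 1, control 2 or 4 d 1, with an adjusted p of up to 0.0634. Npc2, which carries cholesterol out of the lysosome, was 3436 to 4406 in controls and 4994 to 7053 at 4 d (0.56, adjusted p = 0.0728, and 0.000514 with the block).

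Of the 6 membrane proteins, Gpnmb, Lamp2 and Cd63 rose. Gpnmb, a glycoprotein of lysosomes and melanosomes that is also known from macrophages, was the member with the largest difference. It read 66.4, 61.4 and 80.4 in controls, 95 and 113 at 8 h, and 840.1, 1046 and 1028 at 4 d. The 3 groups did not overlap, and the rise at 4 d was 3.31 ± 0.18, or 9.88-fold on this scale (adjusted p = 2.99e-05). Its control arrays were all below the signal of 100 that a probe set had to reach on 2 arrays to be tested, so the gene entered the test through its 4 d arrays.

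Lamp2, a heavily glycosylated protein that lines the lysosomal membrane and serves chaperone-mediated autophagy, read 2059.8, 1907 and 2148 in controls, 2342 and 2067 at 8 h, and 5131, 4133 and 5705 at 4 d (1.27 ± 0.14, adjusted p = 0.000687). Its second probe set gave 1.39 (adjusted p = 0.00336). Cd63, a tetraspanin of late endosomes and lysosomes, read 2249, 2353 and 2994 in controls, 2499 and 2732 at 8 h, and 5744, 5576 and 6959 at 4 d (1.26 ± 0.15, adjusted p = 0.000812). In both genes the 8 h arrays lay close to the controls and the 4 d arrays stood clear of all others.

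Lamp1, the close relative of Lamp2, did not pass. It was 4629.8, 5101 and 7794 in controls, 4178 and 4377 at 8 h, and 4902, 7365 and 5617 at 4 d, so the control and 4 d arrays overlapped throughout (0.05, adjusted p = 0.936). The difference between Lamp2 and Lamp1 was not tested. Scarb2, the receptor that carries glucocerebrosidase to the lysosome, was dim, at 77.6 to 115 in controls and 139 to 191 at 4 d (0.71, adjusted p = 0.16). Mcoln1, a calcium channel of the lysosomal membrane, was 123 to 154 and 156 to 182 (0.24, adjusted p = 0.533). In both, every 4 d array was above every control.

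**Figure D2:**
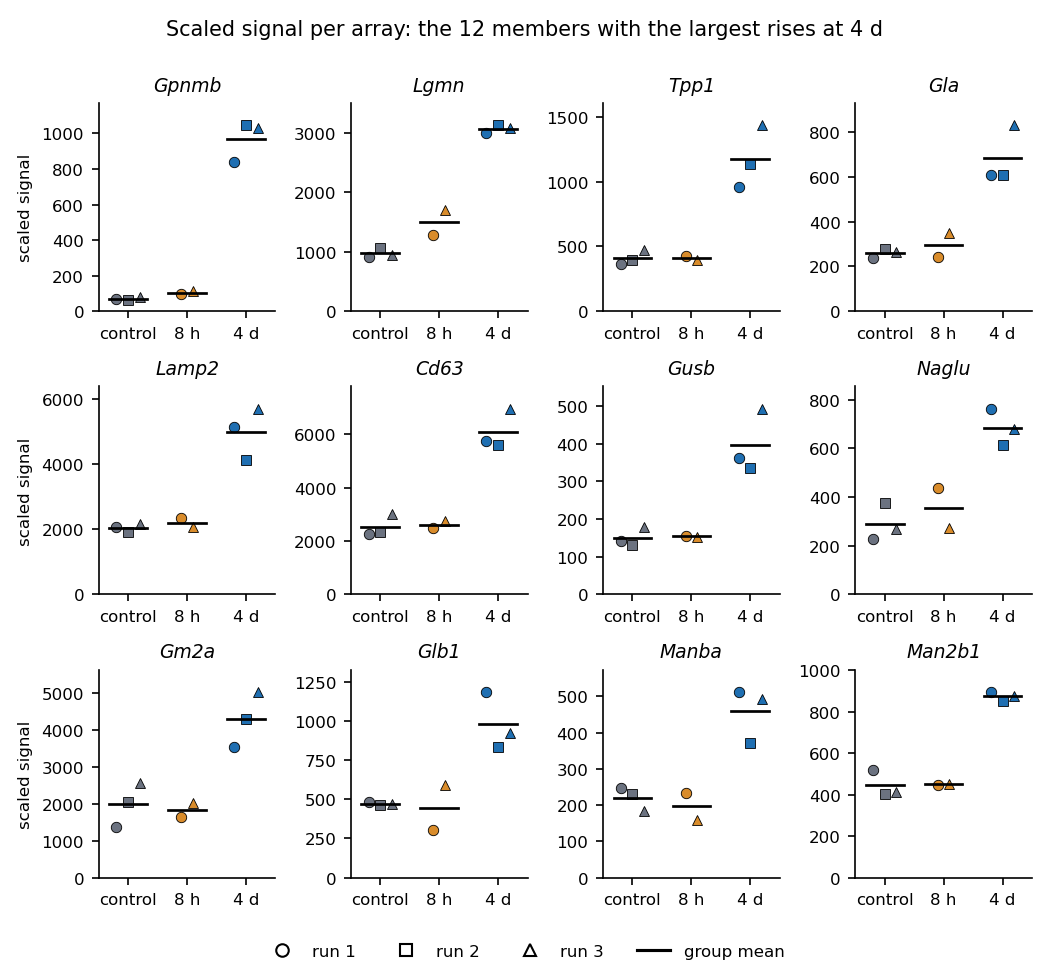
Scaled signal on each of the 8 arrays, by group and run, for the 12 members with the largest rises at 4 d; horizontal bars are group means and symbols show the hybridisation run. In each panel the 3 arrays at 4 d lie above all control and 8 h arrays, from a mean of 69.4 in controls to 971 at 4 d for Gpnmb and from 445 to 874 for Man2b1.

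The V-ATPase has a membrane sector, V0, through which protons pass, and a cytosolic sector, V1, which splits ATP. Of the 8 measured V0 genes 1 rose. Atp6v0d1, the form of subunit d found in most tissues, read 1584, 1596 and 1785 in controls, 1622 and 1777 at 8 h, and 2458, 2283 and 2538 at 4 d (0.54 ± 0.12, adjusted p = 0.0171). Its 4 d arrays stood above all others, and the call was lost without control 1, control 2, 4 d 1 or 4 d 3 (adjusted p of up to 0.0787). With the run as a block Atp6v0a1 (adjusted p = 0.0459) and Atp6v0e1 (0.0381) were higher too. The proton-binding ring subunits gave 0.23 for Atp6v0c, at 4438 to 5186 in controls and 5270.2 to 6218 at 4 d, and 0.30 for Atp6v0b, at 992 to 1225 and 1393 to 1409. In both the 4 d arrays lay just above the controls, short of the threshold (adjusted p = 0.301 and 0.225).

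Subunit a, which steers the pump to its membrane, was measured as 3 isoforms. Atp6v0a1 read 283, 219.9 and 149 in controls, 443 and 406 at 8 h, and 385, 297 and 269 at 4 d, so that its highest values were at 8 h and its control and 4 d arrays overlapped (0.51, adjusted p = 0.218). Atp6v0a2 read 474, 561 and 342 in controls, 411 and 416 at 8 h, and 588, 549 and 276 at 4 d (-0.01). Atp6v0a4, the isoform known from kidney and epididymis, was dim and read 46.0, 80.6 and 28.4 in controls, 35.6 and 15.4 at 8 h, and 155, 119 and 81.6 at 4 d (0.87, adjusted p = 0.172). Of the 3 only Atp6v0a4 had every 4 d array above every control, and its lowest 4 d array was just above its highest control. Of the isoforms of subunit e, Atp6v0e1 read 2187, 2384 and 2271 in controls, 2449 and 2274 at 8 h, and 2711, 2688 and 3113 at 4 d (0.31, adjusted p = 0.138). Atp6v0e2 read 176, 197 and 162 in controls, 182 and 134 at 8 h, and 209, 195 and 281 at 4 d, groups that overlapped (0.30, adjusted p = 0.453).

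Of the 10 measured V1 genes 1 rose, and their median difference was 0.013. Atp6v1e1, a subunit of the peripheral stalk, read 1161, 1457 and 1485 in controls, 1421 and 1874 at 8 h, and 1910.4, 1913 and 2469 at 4 d (0.60 ± 0.17, adjusted p = 0.0481). The 4 d arrays were above all others, the margin over the higher 8 h array was small, and the call was lost without any 1 of the 3 control or 3 treated arrays at 4 d (adjusted p of up to 0.153). Atp6v1a, the subunit that splits ATP, was 1036 to 1369 in controls and 1489 to 1674 at 4 d (0.44, adjusted p = 0.0737, and 0.011 with the run as a block). Atp6v1b2, its partner in the catalytic ring, gave 0.24 (adjusted p = 0.341) on its brighter probe set and 0.53 (adjusted p = 0.0435) on the other.

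Other V1 subunits had differences close to 0 or below it. Atp6v1d, in the central rotor, read 9271, 9342 and 12741 in controls, 10219 and 13438 at 8 h, and 7691, 7913 and 10624 at 4 d. The third run was the highest in every group, and the groups overlapped across runs (-0.26, adjusted p = 0.468), while with the run as a block the gene was lower at 4 d (adjusted p = 0.0098). The differences were -0.03 for Atp6v1f and -0.00 for Atp6v1h, also overlapping. Of the isoforms of subunit C, Atp6v1c1 read 3321, 3326 and 4165 in controls, 3307 and 3853 at 8 h, and 3045, 3149.9 and 3883 at 4 d (-0.10), and Atp6v1c2 read 1187, 1196 and 1084, then 1369 and 1161, then 1297, 1151 and 1183 (0.06). Of those of subunit G, Atp6v1g1 read 3256, 3149 and 3755 in controls, 2864 and 4282 at 8 h, and 3307, 3129.9 and 3933 at 4 d (0.03). Atp6v1g2, the form known from neurons, read 206, 201 and 401, then 141 and 119, then 176, 373 and 97.8 (-0.38). Its control and 4 d arrays overlapped, and both 8 h arrays lay below every control. None of the 4 passed the threshold (adjusted p = 0.761, 0.83, 0.956 and 0.651).

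**Figure D3:**
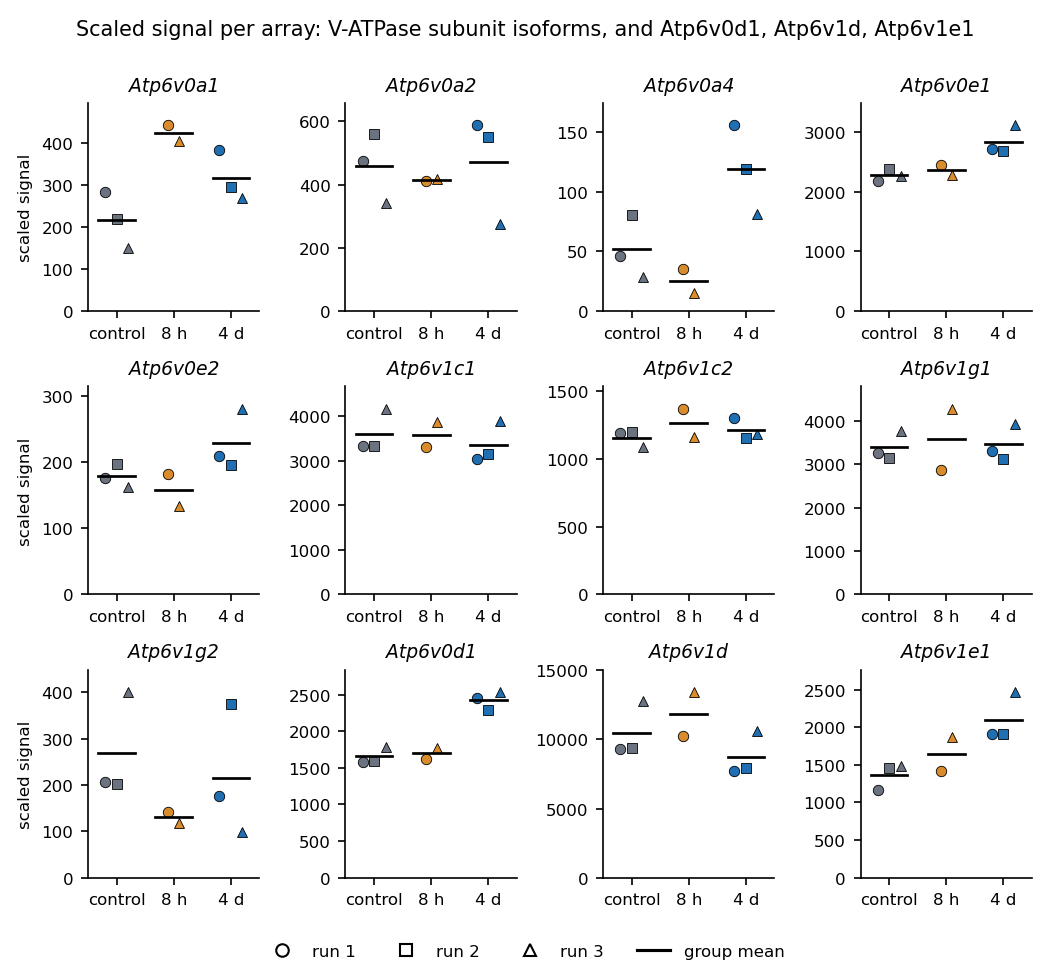
Scaled signal on each array, by group and run, for the measured isoforms of V-ATPase subunits a, e, C and G and for Atp6v0d1, Atp6v1d and Atp6v1e1; horizontal bars are group means and symbols show the hybridisation run. Atp6v0d1 and Atp6v1e1 are higher at 4 d than in every control, with means of 2426 against 1655 and 2098 against 1368, while in most other panels the groups overlap.

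At 8 h, 0 of the 48 members were higher or lower than in control testis, also with the run as a block. Of all tested named genes, 0.0801% were called higher and 0.00% lower, and 0.320% and 0.00890% with the block. At an unadjusted p below 0.05 there were 2 of 48 members (4.17%), against 456 of 11241 tested genes (4.06%), a share near the background. The median difference was 0.030, 41 of the 48 members lay within 0.3 of 0, and the differences ran from -0.84 for Atp6v1g2 to 0.91 for Atp6v0a1. Both 8 h arrays lay above every control in 4 members (Lgmn, Gpnmb, Atp6v0a1 and Arsb, against 7.92% of all tested genes) and below every control in 3 (Psap, Lamp1 and Atp6v1g2, against 7.71%). These shares of the 48 members are also near the background. The 2 members at an unadjusted p below 0.05 were Lgmn and Atp6v0a1. Lgmn had both 8 h arrays above every control (0.59 ± 0.15, adjusted p = 0.446), and so had Atp6v0a1 (0.91 ± 0.25, adjusted p = 0.595). The next smallest p was that of Gpnmb, again with both 8 h arrays above every control (0.42 ± 0.20, adjusted p = 1). With 2 arrays at 8 h, differences of these sizes did not pass the threshold.

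Between 8 h and 4 d, 16 of the 48 members rose and 0 fell, where 4.46% of all tested genes were called higher and 3.58% lower. Every 4 d array lay above both 8 h arrays in 31 members, against 23.6% of all tested genes, and below both in 3 (Neu1, Arsa and Atp6v0a1), against 16.4%. All 16 called members were among the 30 members outside the V-ATPase, and 0 of the 18 V-ATPase genes were called without the block. Gpnmb and Scarb2 were tested only through their 4 d arrays, and without the 3 members of that kind 14 of 45 were higher. Of the called members the largest differences were 2.88 ± 0.20 for Gpnmb (adjusted p = 0.000207), 1.43 ± 0.20 for Tpp1 (0.00383) and 1.23 ± 0.31 for Scarb2 (0.0477). Scarb2 read 32.8 and 78.2 at 8 h against 139, 174 and 191 at 4 d, and its call was lost without any 1 array except control 3 (adjusted p of up to 0.233). The 4 d arrays are shared with the comparison against control, so the 2 comparisons are not independent of each other. With the run as a block 21 members were higher at 4 d than at 8 h and 2, Atp6v1d and Neu1, were lower (background 10.3% and 9.50%). The 21 include the V-ATPase genes Atp6v0d1 (adjusted p = 0.00531) and Atp6v0a4 (0.0321). With median scaling 7 members were higher at 4 d than at 8 h, and 7 were higher without the array 8 h 1, 8 without 8 h 2, 9 without 4 d 1 and 10 without 4 d 3.

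Genes of the same pathway that are no members were read in the same way. Of all tested genes, 7.63% were called higher at 4 d and 5.19% lower. Of 13 measured other hydrolases and cofactors, 4 rose at 4 d and 0 fell, all 13 differences were above 0, and the median was 0.74. They include Smpd1, acid sphingomyelinase, from 713 ± 65.9 in controls to 1937 ± 206 at 4 d (SD, n = 3 each; 1.40, adjusted p = 0.000475), Aga, which cleaves the sugar from asparagine (0.96, adjusted p = 0.0182), and Ids, a sulfatase of heparan sulfate (0.90, adjusted p = 0.00902). Of 15 other membrane proteins 3 rose and 0 fell, with a median of 0.014. They were the metal transporter Slc11a2 (1.28, adjusted p = 0.000811), Cd68 (1.26, adjusted p = 0.013) and Laptm5 (1.23, adjusted p = 0.0121), the last pair being known from leukocytes.

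Of 10 other V-ATPase parts and assembly factors, the accessory subunits Atp6ap1 (1.09, adjusted p = 0.00642) and Atp6ap2 (0.86, adjusted p = 0.011) rose and 0 fell. Atp6ap1 read 376, 458 and 295 in controls and 898, 917 and 683 at 4 d, and Atp6ap2 read 232, 299 and 298 against 505, 512 and 564. Neither pair of groups overlapped. Of 13 measured sorting genes 2 rose, the late endosomal GTPase Rab7a (0.96, adjusted p = 0.00139) and M6pr, the cation-dependent mannose 6-phosphate receptor (0.71, adjusted p = 0.0255), and 0 fell. Of 14 measured transcription factors and mTORC1 genes, 1 rose (7.14%, a share near the background) and 0 fell. It was Rheb, which activates mTORC1 (0.52, adjusted p = 0.0478). Of the 14 differences 12 were above 0 and 2 below, with a median of 0.29, against 0.031 over all tested genes. Rheb differed from control by 0.49 at 8 h, not past the threshold, and by 0.03 between 8 h and 4 d. Tfeb and Tfe3, singled out after their values were seen, were -0.39 (adjusted p = 0.42) and 0.34 (adjusted p = 0.534) at 4 d against control. Mitf and Tfec were below the signal minimum.

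Markers of several cell types also differed at 4 d, where 7.63% of all tested genes were called higher and 5.19% lower. Of 18 measured macrophage and leukocyte markers 9 rose, among them Cd74 (1.88), Lyz2 (1.81) and Fcer1g (1.21), and 2 fell, Adgre1 (-0.74) and Aif1 (-0.47). Itgam was below the minimum. Summed over the list, the 4 d arrays gave 16763 to 19292, against 12511 to 13069 for the controls and 12122 to 13480 for the 8 h arrays. Of 12 Sertoli markers 3 rose (Testin, Shbg and Cldn11) and 1 fell (Rhox5, dim, with a mean of 113 in controls). Of the 12 differences 8 were above 0 and 4 below. The sum of the 12 was 26575 to 30790 in controls and 41896 to 54619 at 4 d, and bright genes weigh most in it. The brightest, Clu, had means of 15970 and 22861 and was not called, while Testin went from 80.1 to 4026. Wt1 (0.24), Gata4 (0.30), Amh (-0.08) and Dmrt1 (-0.05) did not pass the threshold either. Of 9 Leydig markers 1 rose, Hsd11b1 (11.1%, a share near the background), with sums of 14669 to 20125 and 20905 to 33593. Of the 9 differences 7 were above 0 and 2 below, Hsd17b3 (-1.14) and Lhcgr (-0.60), neither past the threshold. Both measured red cell markers rose, with sums of 3018 to 4968 and 6396 to 11215.

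Germ cell markers went the other way or stayed short of the threshold. Of 7 measured markers of round spermatids 3 fell, with sums of 48626 to 55888 in controls and 34238 to 36773 at 4 d, and of 12 of elongating spermatids 6 fell. None of the 6 measured spermatocyte markers was called, with sums of 36543 to 43934 and 36567 to 44074. The summed signal of the member membrane proteins was 9230 to 13251 in controls and 16912 to 19683 at 4 d, and that of the V1 genes was 28780 to 35879 and 28275 to 34885. Their part in the result was not tested.

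**Figure D4:**
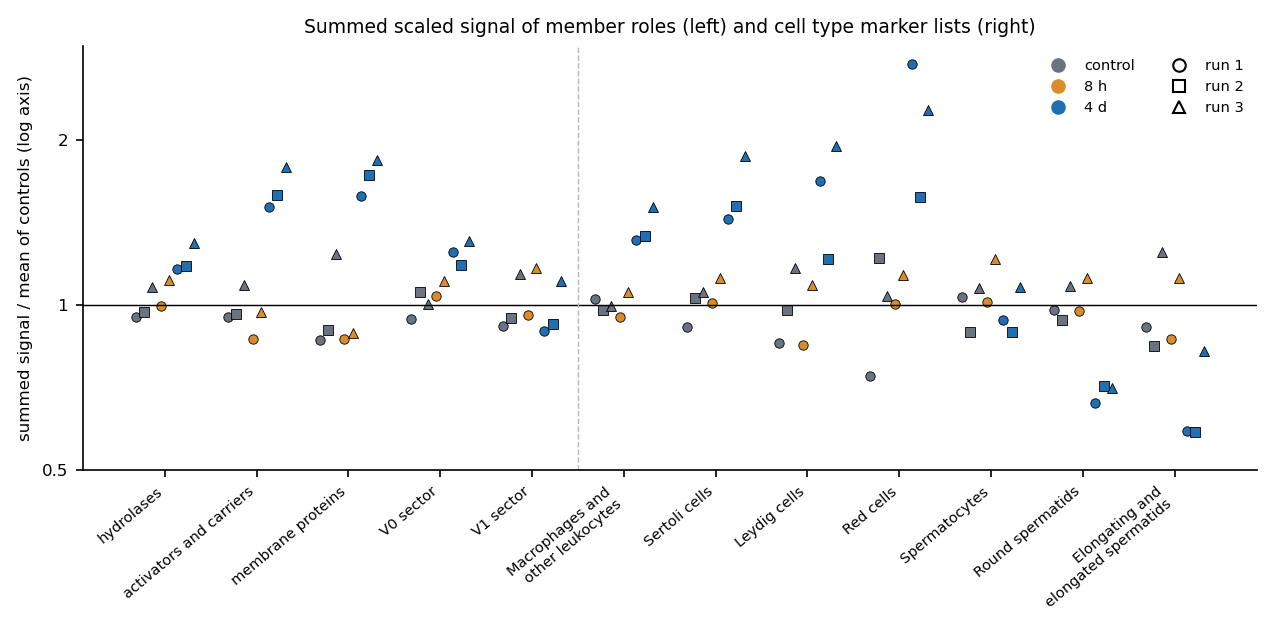
Summed scaled signal on each array for the member roles (left of the dashed line) and for the cell type marker lists (right), each divided by its control mean, on a log axis; colours are groups and symbols hybridisation runs. At 4 d the sums of hydrolases, activators, membrane proteins and V0 genes and of the macrophage, Sertoli, Leydig and red cell lists lie above all their controls, those of both spermatid lists lie below all controls, and the V1 sums overlap the controls.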

How the data were processed

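Total RNA from 0.1 g of testis (5 µg per array) was hybridised to Affymetrix Rat Genome 230 2.0 arrays, 8 in all. The deposited values are MAS 5.0 signal intensities, per the labels and the submitters' processing notes, which also name GeneSpring 7.2. No counts lie behind an array value, so the number of arrays limits the precision. Each array was scaled to a 2% trimmed mean of 500, and log2(signal + 32) was fitted with limma 3.58.1 (R 4.3.3, eBayes with trend) over all 8 arrays, without a block. Tested were 19785 probe sets with scaled signals of 100 or more on 2 arrays, out of 31099, of which 57 controls were left out. Of 31042 probe sets, 20826 had 1 symbol, 436 several and 9780 none in the platform annotation. Same-numbered control and 4 d arrays shared a hybridisation run in the settings files and deviated together (r = 0.35 to 0.51), so the pairing is that of the run. 8 h 2 belongs to the third run, although its title number is that of the second.

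Members, lists and tests were chosen with earlier results of these data known. Values on every array are given, by rule, for up to 6 members per role with the largest called change at 4 d, for the smallest p at 8 h, for the largest called change from 8 h to 4 d and for V-ATPase isoforms, and up to 3 genes per pathway list are named. The fit was tested on simulated data with independent noise on each array, so that test does not cover deviations shared within a run. Alternatives were other pseudocounts, scalings, signal minimums, probe set rules, blocks, no trend and arrays left out.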

Additional observations from a re-analysis of the deposited data

Results flagged for a closer look

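In 16 members the difference from control at 4 d differed from that at 8 h, by the direct limma contrast of 4 d with 8 h at an adjusted p below 0.05. The log2 differences were 2.88 for Gpnmb, 1.43 for Tpp1, 1.23 for Scarb2, 1.20 for Cd63 and 1.20 for Gm2a, 1.19 for Gusb, 1.16 for Lamp2, 1.13 for Gla and 1.13 for Glb1, and 1.11 for Manba. They were 1.04 for Lgmn, 0.91 for Man2b1, 0.83 for Gaa and 0.83 for Psap, 0.77 for Grn and 0.70 for Ppt1. All 16 were higher at 4 d. Among them Gpnmb and Scarb2 were tested only through their 4 d arrays.

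The calls of Psap, Cd63, Gpnmb, Lamp2, Lgmn and Tpp1 held without each array in turn. The other 10 were lost without at least 1 array: Gla only without 8 h 1 (adjusted p = 0.101), and Gusb, Man2b1, Manba, Ppt1, Gm2a, Gaa, Glb1, Grn and Scarb2 without 3 to 7 of the arrays. Their highest adjusted p values were 0.105, 0.0878, 0.191, 0.113, 0.129, 0.165, 0.167, 0.183 and 0.233. The groups of 2 and 3 arrays were too small to look for single arrays that stand apart.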

How the results depend on the processing

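No difference of a named member changed sign while called under any setting run. Of the 19 calls at 4 d, 12 held without each array in turn. With median scaling 11 members were higher at 4 d than control and 7 higher at 4 d than 8 h, in place of 19 and 16. The 8 calls against control that median scaling ended were those of Psap, Gm2a, Grn, Glb1, Gaa, Arsb, Atp6v0d1 and Atp6v1e1. Arsb and Gaa also lost theirs with quantile normalization, Arsb, Gaa and Atp6v1e1 with no signal minimum or no trend, Atp6v1e1 with a pseudocount of 4, and Man2b1 with the mean over probe sets. With quantile normalization, other pseudocounts, other signal minimums, the mean over probe sets or no trend, 16 to 20 were higher than control. Leaving out 1 array gave 12 to 17 members higher than control, the lowest without 4 d 1, and 7 to 17 higher than 8 h, the lowest without 8 h 1 (8 without 8 h 2, 9 without 4 d 1 and 10 without 4 d 3). Leaving out whole runs, chosen after seeing the data, gave 3 members higher than control without the first run, 7 without the second and 17 without the third, and 0, 5 and 10 higher than 8 h. With the replicate block (title numbers), 23 were higher than control and 1 was lower at 4 d than 8 h. With the hybridisation run as a block, 1 was lower than control and 2 were lower than 8 h, and no call was lost. At 8 h, 0 were called under every setting. The causes were not tested. Of 3 members with control means below 100 (Gpnmb, Scarb2 and Atp6v0a4), each was tested only through its 4 d arrays. Without them 18 of 45 were higher and the median was 0.44. The rule kept Atp6v0a4 (15.4 to 155) and Scarb2 (32.8 to 191) just inside, and left out Atp6v1b1 (5.40 to 60.0) and Atp6v1g3 (2.80 to 50.2).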
